A study of Mus musculus with 24 samples.

Results

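Solute carriers are the membrane proteins that move amino acids, sugars, metals, ions, nucleotides and metabolites across the membranes of the cell and of its organelles. A gene was taken as a member when its symbol had the pattern of the family, Slc with a family number, the letter a and a member number, and when it reached at least 5 FPKM (sequenced fragments relative to transcript length and library total) in 3 or more of 24 mouse pancreas libraries. Slc38a5, Slc7a11, Slc40a1 and Slc11a2 were left out by name. Of 322 genes with the pattern in a table of 36806 genes, 93 were members, 226 lay below the level, and 3 of the genes left out by name were at the level. The rule used the FPKM of the libraries compared here, so the level of each member is a description.

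The libraries came from polyadenylated RNA of whole pancreas of C57BL mice with one copy (+/-, called HET) or both copies (+/+, called WT) of Nr5a2, a nuclear receptor of acinar cells, the enzyme-secreting cells of the gland. Pancreata of HET mice were taken after saline or 8, 24 or 48 h after the first of 7 hourly intraperitoneal injections of caerulein at 50 µg/kg, and those of WT mice after the same treatments, with 3 animals in each of the 8 groups. Caerulein mimics the gut hormone cholecystokinin, and repeated doses drive the acinar cells into a mild, passing inflammation of the gland. The labels name no tissue-specific driver for the Nr5a2 allele.

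Acinar cells make more protein than almost any other cell, and they take up amino acids through sodium-coupled carriers and through exchangers of the Slc7 family, several of which need Slc3a2 as a partner to reach the plasma membrane. Zinc is packed into their secretory granules, with carriers of the Slc39 family moving zinc into the cytosol and those of the Slc30 family moving it out or into organelles. Most carriers of the Slc25 family sit in the inner mitochondrial membrane and exchange nucleotides, phosphate, calcium-regulated adenine nucleotides and metabolic acids. Bicarbonate and chloride exchangers of acinar and duct cells set the ion content of pancreatic juice.

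Nr5a2 measured 8.01, 8.79 and 9.09 FPKM in HET saline libraries and 9.26, 10.2 and 12.6 FPKM in WT saline libraries, and the genotypes differed past the limma threshold explained below in none of the 4 conditions (log2 difference -0.27 ± 0.19, adjusted p = 0.448 in saline). The mean log2(FPKM + 1) of 5 acinar markers with usable values was 9.87 to 10.4 in HET and 10.28 to 10.52 in WT saline libraries, 7.8 to 7.86 in HET and 7.68 to 8.48 in WT at 8 h, 5.86 to 6.27 in HET and 7.91 to 8.37 in WT at 24 h, and 3.74 to 7.07 in HET and 8.36 to 9.34 in WT at 48 h. HET_48h replicate 3 held the lowest of these means and stood apart from the rest. The members' summed FPKM made up 0.125% to 0.391% of all FPKM of a library. Zeros of 22 genes that the tests treated as missing were summed as 0, so these shares are not compared between groups. Saline and 24 h libraries were prepared under an earlier guide and 8 h and 48 h libraries under a later one, so where 8 h or 48 h is set against saline the guide and the time cannot be told apart. Genotypes, and 24 h with saline or 48 h with 8 h, are compared within one guide. WT_saline replicate 3 was named for neither guide.

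Members were classed by family number alone, so a class may not give the substrate or site of each member. The classes held 21 carriers of amino acids and amines, 20 mitochondrial carriers, 18 of metals and 10 of vitamins, choline, fatty acids or heme. They also held 8 of inorganic ions or acid equivalents, 5 of peptides or organic ions and 5 of nucleosides, nucleotide sugars or acetyl-CoA. The rest were 4 carriers of sugars and 2 of monocarboxylates. At least 5 FPKM was reached in all 24 libraries by 22 members and in 12 or more libraries by 56, and no member was at 0 in any library. The highest means over the 24 libraries, on a per-length scale, belonged to Slc25a3, the mitochondrial phosphate carrier, at 113 FPKM, and Slc3a2, the shared heavy chain of several amino acid exchangers, at 101 FPKM. They were followed by Slc25a39, a mitochondrial glutathione carrier, at 88.6 FPKM, Slc25a5, an ADP/ATP carrier, at 67.4 FPKM and Slc1a5, a neutral amino acid and glutamine exchanger, at 62.2 FPKM. The next were the zinc importer Slc39a5 at 59.5 FPKM, the leucine exchanger subunit Slc7a5 at 48.4 FPKM, Slc39a7, which releases zinc from the endoplasmic reticulum, at 44.7 FPKM, the glycine carrier Slc6a9 at 42.5 FPKM and Slc38a10 at 33.2 FPKM.

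The members differed widely in how much they moved. The highest library exceeded the lowest by 1.59 times for Slc37a3 and by 1.99 times for Slc25a3, against 29 times for the glucose transporter Slc2a1 and 401 times for Slc39a5. The lowest Slc39a5 library was HET_48h replicate 3, far below the next, and the figure for that gene rests on it. The third-highest library, which the rule rests on, lay just inside the level for Slc45a4 at 5.1 FPKM and Slc39a6 at 5.38 FPKM, and just outside for Slc17a5 at 4.99 FPKM and Slc37a2 at 4.96 FPKM. In 10 members (Slc26a10, Slc46a1, Slc7a7, Slc30a2, Slc17a9, Slc25a16, Slc25a45, Slc15a3, Slc1a3 and Slc15a2) exactly 1 group had all 3 libraries at the level, and in Slc7a4, Slc39a6 and Slc45a4 none had. Without that group's libraries 5 of the 10 would not have been members, namely Slc25a16 and Slc25a45 (WT saline), Slc15a3 (HET at 24 h), Slc1a3 (HET at 8 h) and Slc15a2 (WT at 48 h). A member that passed through the group where it was high had to differ from lower groups. Counts of members called in a comparison are therefore set beside the share called among the 7582 genes of the table at this level. Counts of members called alike in both genotypes were made for the members alone, without a share over all genes. All these counts are read as descriptions.

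**Figure D1:**
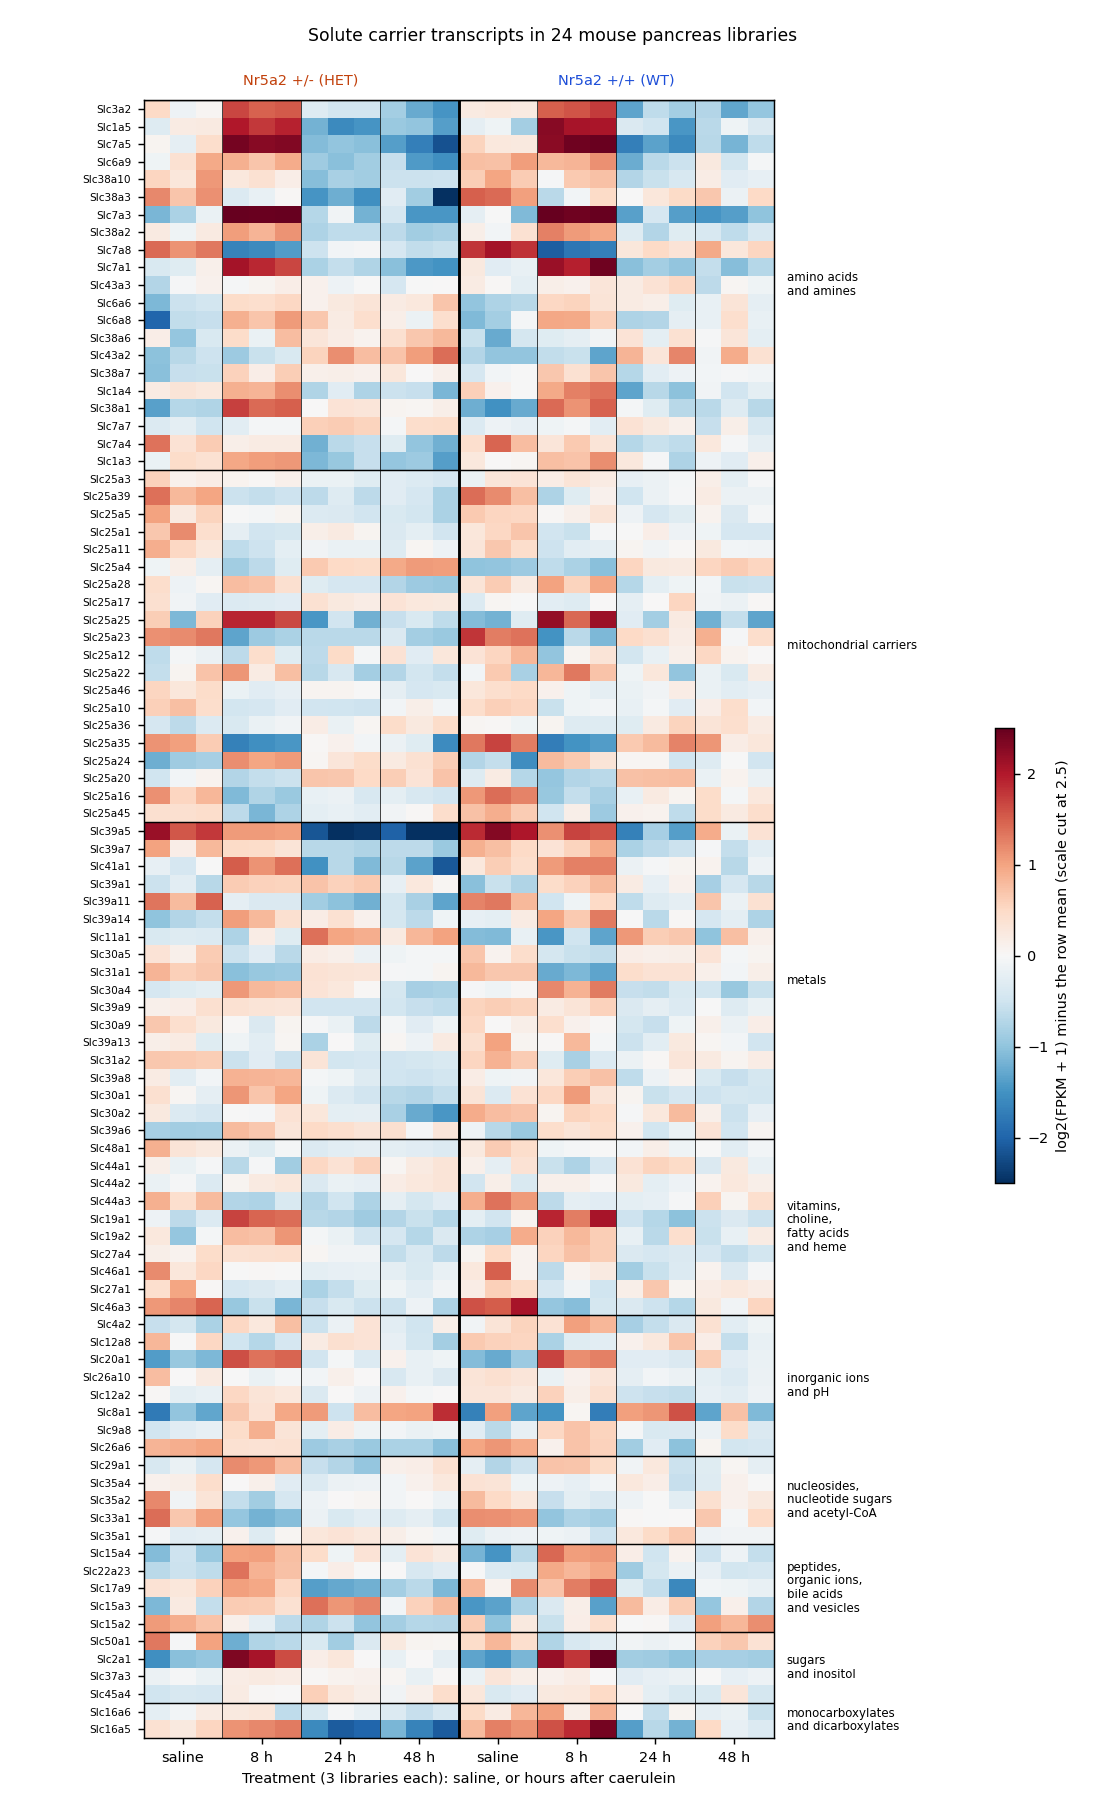
Each row is 1 of the 93 solute carriers, grouped by family class and sorted by mean level. Each column is 1 library, with the 12 HET libraries left of the 12 WT libraries and saline, 8, 24 and 48 h in order. Colour is log2(FPKM + 1) minus the mean of the row. The 8 h columns of both genotypes stand out in the amino acid block, and Slc39a5, Slc16a5 and Slc38a3 have their lowest group mean in HET at 24 h or 48 h.

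Group means of log2(FPKM + 1) were subtracted, and the result is called the log2 difference and given with its standard error. They were tested with limma on every gene at 1 FPKM or more in at least 3 libraries, at a Benjamini-Hochberg adjusted p under 0.05 over all genes of a comparison. Words such as "rose" or "lower" stand only for changes past it. The pseudocount makes this scale understate changes of low genes. Whole tissue was measured, so fewer cells of a type and less RNA per cell cannot be told apart.

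The first question was what caerulein did to the transporters by 8 h after the first injection. In HET 39 members were higher and 31 lower than in saline, 75.3% of the 93, against 55.2% of all genes tested and 64.3% of genes at the same level. In WT 30 were higher and 28 lower, 62.4%, against 51% and 59.6%, so the members' share was above that of genes at the level in HET and close to it in WT. In both genotypes 28 members rose, 12 of them amino acid carriers, and 27 fell, 11 of them mitochondrial carriers. How many of all genes did so in both genotypes was not counted. Slc1a3, among those that rose, is a member only through its HET 8 h libraries. Slc25a16 and Slc25a45, among those that fell, are members only through WT saline libraries. Of the 21 amino acid carriers 13 rose and 2 fell in HET and 12 rose and 2 fell in WT, where 35.9% and 34.3% of genes at the level rose. The acinar marker means given above were lower in every 8 h library than in every saline library of the same genotype, and their part in these differences was not tested.

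Slc7a3, a carrier of arginine and lysine, had the largest rise of the members at 8 h in HET. It falls outside the rule for named genes and was chosen after its values were seen. In HET libraries Slc7a3 measured 4.92, 6.58 and 10.6 FPKM in saline, 83.6, 71.8 and 86.8 FPKM at 8 h, 6.95, 11.2 and 4.75 FPKM at 24 h and 8.8, 3.76 and 3.77 FPKM at 48 h. In WT libraries Slc7a3 measured 10.2, 12 and 5.08 FPKM in saline, 77.2, 69.3 and 91.5 FPKM at 8 h, 4.11, 8.76 and 4.02 FPKM at 24 h and 3.68, 4 and 5.51 FPKM at 48 h. The 8 h libraries stood above all others in both genotypes, and those of saline, 24 h and 48 h overlapped one another. The log2 difference of 8 h against saline was 3.34 ± 0.35 with adjusted p = 1.21e-07 in HET and 3.06 ± 0.35 with adjusted p = 4.32e-07 in WT.

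Slc7a5, the light chain that exchanges leucine and other large neutral amino acids once joined to Slc3a2, rose at 8 h and so did its partner. In HET libraries Slc7a5 measured 27.9, 22.6 and 36.6 FPKM in saline, 144, 133 and 136 FPKM at 8 h, 12.1, 12.9 and 12.4 FPKM at 24 h and 9.68, 7.49 and 5.11 FPKM at 48 h. In WT libraries Slc7a5 measured 39.7, 32 and 31.6 FPKM in saline, 130, 148 and 151 FPKM at 8 h, 7.47, 9.92 and 8.18 FPKM at 24 h and 16, 11.4 and 16.9 FPKM at 48 h. No 2 times overlapped in either genotype, with 8 h highest and saline next, and 48 h was the lowest in HET while 24 h was the lowest in WT. Slc7a5 rose at 8 h (log2 difference 2.23 ± 0.19 with adjusted p = 8.11e-09 in HET and 2.03 ± 0.19 with adjusted p = 3.41e-08 in WT). Its partner Slc3a2 measured 246, 216 and 223 FPKM at 8 h against 109, 70.3 and 79.5 FPKM in saline in HET, and 217, 229 and 262 FPKM at 8 h against 90.4, 92.8 and 89.3 FPKM in saline in WT. That was a log2 difference of 1.42 ± 0.19 with adjusted p = 3.80e-06 in HET and 1.36 ± 0.19 with adjusted p = 6.82e-06 in WT, with no overlap between the times.

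Further carriers that bring amino acids into the cytosol rose as well. Slc7a1, a second carrier of cationic amino acids, reached 40.9, 35.5 and 30.5 FPKM at 8 h against 6.6, 6.98 and 9.76 FPKM in saline in HET, and 43.1, 37 and 52.8 FPKM against 10.8, 7.1 and 7.67 FPKM in WT. Slc1a5 reached 165, 140 and 156 FPKM against 32, 47.1 and 47.5 FPKM in HET and 201, 173 and 170 FPKM against 34.7, 37.4 and 22.1 FPKM in WT. The log2 differences were 2.07 ± 0.18 with adjusted p = 1.24e-08 in HET and 2.25 ± 0.18 with adjusted p = 4.44e-09 in WT for Slc7a1. For Slc1a5 they were 1.86 ± 0.25 with adjusted p = 3.48e-06 in HET and 2.52 ± 0.25 with adjusted p = 7.48e-08 in WT. The sodium-coupled glutamine and alanine carriers Slc38a1 and Slc38a2 rose on the log2 scale by 2.47 and 0.89 in HET and by 2.67 and 0.94 in WT. The taurine carrier Slc6a6 and the creatine carrier Slc6a8 rose on the log2 scale by 1.17 and 1.94 in HET and by 1.28 and 1.5 in WT, as did the neutral amino acid exchanger Slc1a4 (0.70 and 0.96).

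Slc7a8, which like Slc7a5 pairs with Slc3a2 and exchanges neutral amino acids, fell at 8 h. In HET libraries Slc7a8 measured 32.6, 26.5 and 30.5 FPKM in saline, 2.96, 3.17 and 3.77 FPKM at 8 h, 7.78, 11 and 11.3 FPKM at 24 h and 8.46, 7.26 and 7.5 FPKM at 48 h. In WT libraries Slc7a8 measured 42.4, 51.9 and 42.8 FPKM in saline, 2.03, 2.61 and 2.83 FPKM at 8 h, 14.4, 16.7 and 14.9 FPKM at 24 h and 23.2, 14.2 and 17.3 FPKM at 48 h. In each genotype the 8 h libraries were the lowest and the saline libraries the highest, with no overlap between 8 h and any other time. The log2 difference of 8 h against saline was -2.84 ± 0.16 with adjusted p = 3.65e-11 in HET and -3.74 ± 0.16 with adjusted p = 8.93e-13 in WT. Of the amino acid carriers the other that fell in both genotypes was Slc38a3, a glutamine carrier of liver, kidney and pancreas (log2 difference -1.17 in HET and -1.41 in WT).

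**Figure D2:**
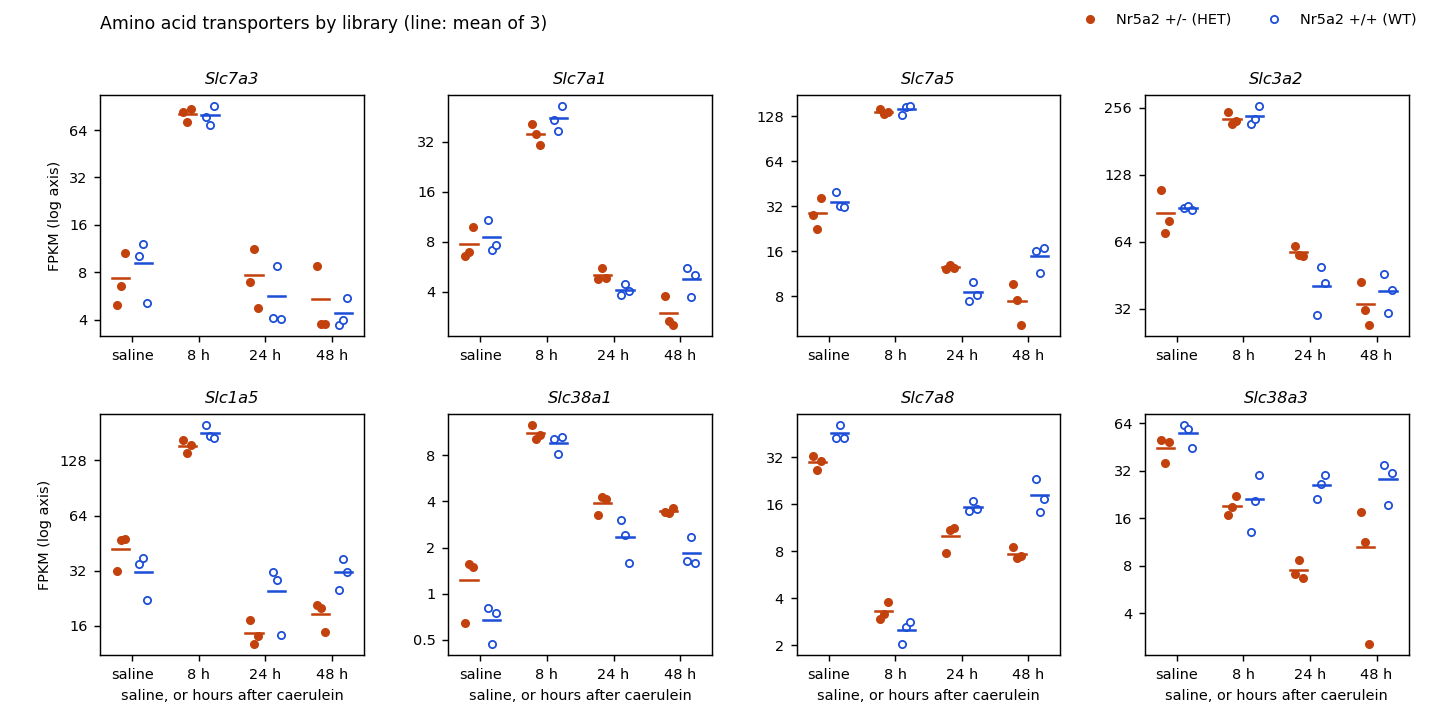
FPKM on a log axis of 8 amino acid transporters at each time, with HET (filled) left of WT (open), 1 point per library and a line at the mean of 3. Slc7a3, Slc7a1, Slc7a5, Slc3a2, Slc1a5 and Slc38a1 peak at 8 h in both genotypes and Slc7a8 is at its lowest there, while Slc38a3 lies lower in HET than in WT at 24 h and 48 h.

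Glucose and phosphate importers rose at 8 h too. Slc2a1, the widely expressed glucose transporter, measured 37.6, 30.8 and 22.7 FPKM at 8 h against 1.64, 2.71 and 2.9 FPKM in saline in HET, and 33.3, 25.4 and 47.6 FPKM against 2.05, 1.75 and 2.46 FPKM in WT. It rose (log2 difference 3.19 ± 0.20 with adjusted p = 9.82e-11 in HET and 3.52 ± 0.20 with adjusted p = 2.79e-11 in WT). Slc20a1, a sodium-phosphate importer, reached 15.1, 12.5 and 13.5 FPKM against 1, 1.73 and 1.43 FPKM in HET and 16.1, 10.8 and 11.7 FPKM against 1.48, 1.2 and 1.79 FPKM in WT, a log2 difference of 2.63 ± 0.20 with adjusted p = 1.47e-09 in HET and 2.46 ± 0.20 with adjusted p = 4.24e-09 in WT. No 8 h library of either gene overlapped a saline library. Slc50a1, a sugar carrier of the SWEET family, fell (log2 difference -1.65 ± 0.25 in HET and -1.04 ± 0.25 in WT). The folate importer Slc19a1 rose (log2 difference 1.9 in HET and 1.96 in WT), as did the nucleoside carrier Slc29a1 (1.34 and 1.11), and the endolysosomal peptide and histidine carrier Slc15a4 (1.77 and 2.31).

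Of the mitochondrial carriers 12 of 20 fell at 8 h in HET and 11 of 20 in WT, while 3 rose in each. Those that fell in both genotypes include Slc25a16 and Slc25a45. Both are members only through their WT saline libraries, so their WT falls were built in by the rule and support nothing. Of genes at the level 28.4% fell in HET and 25.3% in WT. Slc25a35, a carrier with no settled substrate, measured 0.586, 0.772 and 0.88 FPKM at 8 h against 10.2, 9.42 and 6.95 FPKM in saline in HET, and 0.55, 0.821 and 0.947 FPKM against 11.8, 15.5 and 11.4 FPKM in WT. The log2 difference was -2.48 ± 0.29 with adjusted p = 5.72e-07 in HET and -2.96 ± 0.29 with adjusted p = 6.32e-08 in WT, and no libraries overlapped. The 3 calcium-regulated carriers of ATP-magnesium and phosphate went different ways. Slc25a25 and Slc25a24 rose on the log2 scale by 1.8 and 2.05 in HET and by 2.78 and 1.55 in WT, and Slc25a23 fell (log2 difference -2.22 in HET and -2.57 in WT). Slc25a16 fell (log2 difference -1.76 in HET and -2.03 in WT, where its membership rests on the saline libraries), as did Slc25a39 (-1.6 and -1.43), and the citrate carrier Slc25a1 (-1.15 and -0.85). The mitochondrial phosphate carrier Slc25a3 did not pass the test, with log2 differences of -0.21 in HET and 0.08 in WT.

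Metal carriers split in 2 directions, of which 7 of 18 rose and 5 fell in HET and 6 rose and 4 fell in WT. Slc31a1, the copper importer, measured 2.54, 2.77 and 2.87 FPKM at 8 h against 12.2, 9.98 and 10.6 FPKM in saline in HET, and 2.05, 2.36 and 1.91 FPKM against 11.8, 10.7 and 10.7 FPKM in WT, a log2 difference of -1.68 ± 0.10 with adjusted p = 5.20e-11 in HET and -1.96 ± 0.10 with adjusted p = 5.81e-12 in WT. The 3 libraries of each group lay close together and no 8 h library overlapped a saline library. Slc39a14, an importer of zinc and iron, rose (log2 difference 1.54 in HET and 1.06 in WT), as did the zinc importer Slc39a1 (1.09 and 1.39), the zinc exporter Slc30a4 (1.21 and 1.16), and the magnesium exporter Slc41a1 (1.55 and 0.75). Slc39a11 fell (log2 difference -1.51 in HET and -1.16 in WT). The acetyl-CoA carrier of the endoplasmic reticulum, Slc33a1, fell (log2 difference -2.1 in HET and -2.0 in WT), as did the lysosomal carrier Slc46a3 (-2.13 and -2.54). The 8 h counts differ from saline in guide as well as in time, and the share of rises among the calls stayed within 10 percentage points of that in the values as deposited under each scaling tried. In HET the split was 35 higher and 35 lower under median-of-ratios scaling and 36 higher and 21 lower under scaling without digestive enzyme and Reg genes.

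The second question was what came back by 48 h, compared within 1 guide. Against 8 h, 18 members were higher and 43 lower in HET (52% of all genes tested and 59.1% of genes at the level were called), and 22 higher and 43 lower in WT (50% and 56.9%). In both genotypes 38 members were lower at 48 h than at 8 h, 11 of them amino acid carriers and 10 metal carriers, and 16 were higher, 7 of them mitochondrial carriers. Shares over all genes were not split by direction for this comparison, nor counted for both genotypes together. This comparison and that of 8 h with saline share the 8 h libraries, so their values stand side by side and are not counted against each other. Slc7a5 was lower at 48 h than at 8 h (log2 difference -4.08 ± 0.19 with adjusted p = 3.78e-12 in HET and -3.21 ± 0.19 with adjusted p = 9.05e-11 in WT). Slc7a3 was lower (log2 difference -3.75 in HET and -3.9 in WT), as were Slc7a1 (-3.2 and -2.97), Slc1a5 (-2.99 and -2.51), Slc3a2 (-2.75 and -2.6) and Slc2a1 (-2.15 and -3.05).

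Slc7a8 was higher at 48 h than at 8 h (log2 difference 1.02 ± 0.16 with adjusted p = 2.96e-05 in HET and 2.44 ± 0.16 with adjusted p = 4.18e-10 in WT). Slc31a1 was higher (log2 difference 0.97 in HET and 1.3 in WT), as were Slc33a1 (0.72 and 1.25) and Slc50a1 (1.0 and 1.01). The split depended on scaling. Libraries were also scaled to their total without digestive enzyme and Reg genes. That moved every gene's difference in log2 FPKM, before the pseudocount, by 0.96 in HET and 0.66 in WT. The split was then 42 higher and 24 lower in HET and 34 higher and 21 lower in WT. Scaling to the total of genes never at 0 and never at 1000 FPKM was a choice made after the data were seen. It moved the differences by 0.38 and 0.36. The split was then 25 higher and 32 lower in HET and 28 higher and 28 lower in WT. The falls of Slc7a3, Slc7a5, Slc7a1, Slc1a5, Slc3a2 and Slc2a1 and the rise of Slc7a8 kept their direction under both.

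The third question was the state at 24 h, also compared with saline within 1 guide. In HET 24 members were higher and 44 lower than in saline (43.8% of all genes tested and 51.6% of genes at the level were called), and in WT 15 higher and 45 lower (39.2% and 46.1%). The members lower than saline made up 47.3% in HET and 48.4% in WT, against 24.2% and 24% of genes at the level. Scaling without enzyme and Reg genes moved every gene's difference in log2 FPKM, before the pseudocount, by 1.16 in HET and 0.94 in WT. It turned the splits to 48 higher and 10 lower in HET and 35 higher and 10 lower in WT. Scaling to the total of genes never at 0 and never at 1000 FPKM moved the differences by 0.28 and 0.26. It gave 28 higher and 32 lower in HET and 22 higher and 28 lower in WT. In the values as deposited 36 members were lower in both genotypes, 10 of them amino acid carriers, 10 mitochondrial carriers and 7 metal carriers, and 14 were higher in both. The same counts over all genes were not made. The lower ones include Slc25a16 and Slc25a45, which are members only through WT saline libraries.

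Slc39a5, the zinc importer of the acinar cell's basolateral membrane, had the largest fall of the members at 24 h. In HET libraries Slc39a5 measured 145, 94.5 and 111 FPKM in saline, 67.4, 67.5 and 65.2 FPKM at 8 h, 6.41, 4.7 and 5.1 FPKM at 24 h and 7.09, 3.68 and 0.399 FPKM at 48 h. In WT libraries Slc39a5 measured 118, 160 and 131 FPKM in saline, 70.7, 104 and 98.2 FPKM at 8 h, 9.07, 17.3 and 11.6 FPKM at 24 h and 61.5, 28.2 and 41 FPKM at 48 h. Libraries at 24 h lay far below saline in both genotypes, and at 48 h those of HET stayed below all libraries of WT. The log2 difference at 24 h was -4.19 ± 0.42 with adjusted p = 3.46e-07 in HET and -3.36 ± 0.42 with adjusted p = 6.84e-06 in WT. Slc39a7, which releases zinc from the endoplasmic reticulum, and Slc39a11 fell less. Slc39a7 fell (log2 difference -1.38 ± 0.19 with adjusted p = 1.44e-05 in HET and -1.38 ± 0.19 with adjusted p = 2.22e-05 in WT), as did Slc39a11 (-2.23 and -1.52). The zinc exporter of the secretory granule, Slc30a2, did not pass the test, with log2 differences of 0.12 in HET and -0.47 in WT.

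Slc16a5, a monocarboxylate carrier, rose at 8 h (log2 difference 0.83 in HET and 0.89 in WT) and was below saline by 24 h. It measured 0.911, 0.368 and 0.45 FPKM at 24 h against 6.45, 5.86 and 7.3 FPKM in saline in HET, and 1.21, 2.55 and 1.55 FPKM against 9.01, 12.7 and 11.6 FPKM in WT. It fell (log2 difference -2.27 ± 0.26 with adjusted p = 1.26e-06 in HET and -2.14 ± 0.26 with adjusted p = 3.96e-06 in WT). Slc26a6, an apical chloride-bicarbonate exchanger, measured 0.816, 0.963 and 0.798 FPKM against 5.16, 5.42 and 5.83 FPKM in HET and 0.871, 1.82 and 0.677 FPKM against 5.82, 6.38 and 5.5 FPKM in WT, a log2 difference of -1.8 ± 0.18 with adjusted p = 3.29e-07 in HET and -1.74 ± 0.18 with adjusted p = 1.02e-06 in WT. The 24 h and saline libraries of both genes did not overlap. Slc46a3 fell (log2 difference -1.75 in HET and -2.25 in WT), as did the vesicular nucleotide carrier Slc17a9 (-1.7 and -1.53), Slc6a9 (-1.34 and -1.65), Slc38a10 (-1.55 and -1.31), Slc7a8 (-1.5 and -1.51) and Slc25a39 (-1.6 and -1.34). The mean log2(FPKM + 1) of the acinar markers was lower at 24 h than in saline in every library of both genotypes, as given above, and its part in these falls was not tested.

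Slc11a1 and Slc15a3 are known from phagocytes. Slc11a1, which pumps iron and manganese out of the phagosome, measured 21.6, 16.2 and 15.3 FPKM at 24 h against 5.66, 5.99 and 5.91 FPKM in saline in HET, and 17.5, 12.3 and 12.9 FPKM against 3.13, 3.06 and 6.62 FPKM in WT, a log2 difference of 1.43 ± 0.37 with adjusted p = 0.00382 in HET and 1.58 ± 0.37 with adjusted p = 0.00222 in WT. Slc15a3, an endolysosomal peptide and histidine carrier, measured 8.67, 6.96 and 7.64 FPKM against 0.707, 3.32 and 1.47 FPKM in HET and 5.42, 3.21 and 4.68 FPKM against 0.36, 0.466 and 1.17 FPKM in WT, a log2 difference of 1.73 ± 0.37 with adjusted p = 7.93e-04 in HET and 1.72 ± 0.37 with adjusted p = 0.0011 in WT. Slc15a3 is a member only through its HET 24 h libraries, with 2 libraries at the level elsewhere, so its HET difference is a description and supports nothing. No 24 h library of either gene overlapped a saline library of its genotype. The mean log2(FPKM + 1) of 9 macrophage markers was 5.85 to 6.3 at 24 h against 3.89 to 4.56 in saline in HET and 5.09 to 5.86 against 2.6 to 3.62 in WT, and its part in these rises was not tested. Slc43a2, a carrier of branched-chain and aromatic amino acids, rose (log2 difference 1.57 in HET and 1.69 in WT), as did Slc38a1 (1.15 and 0.98) and Slc20a1 (0.87 and 0.78).

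Slc25a4, the ADP/ATP carrier best known from heart and muscle, rose while Slc25a5, a second ADP/ATP carrier, fell. In HET libraries Slc25a4 measured 10.4, 12.5 and 9.44 FPKM in saline, 5.73, 6.84 and 8.94 FPKM at 8 h, 18.3, 16.4 and 15.9 FPKM at 24 h and 22.8, 24.8 and 24.4 FPKM at 48 h. In WT libraries Slc25a4 measured 5.1, 5.22 and 5.53 FPKM in saline, 6.95, 6.07 and 4.97 FPKM at 8 h, 16.8, 13.5 and 13.4 FPKM at 24 h and 16.7, 18 and 16.7 FPKM at 48 h. In both genotypes the 24 h and 48 h libraries lay above all saline libraries. Slc25a4 rose at 24 h (log2 difference 0.61 ± 0.14 with adjusted p = 0.0017 in HET and 1.3 ± 0.14 with adjusted p = 1.46e-06 in WT), and Slc25a5 fell (-0.99 ± 0.17 with adjusted p = 9.00e-05 in HET and -0.86 ± 0.17 with adjusted p = 4.84e-04 in WT), but under scaling without enzyme and Reg genes Slc25a5 took the other sign in both genotypes. Slc25a20, the carnitine carrier that brings fatty acids to oxidation, rose (log2 difference 0.78 ± 0.18 in HET and 1.03 ± 0.18 in WT).

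**Figure D3:**
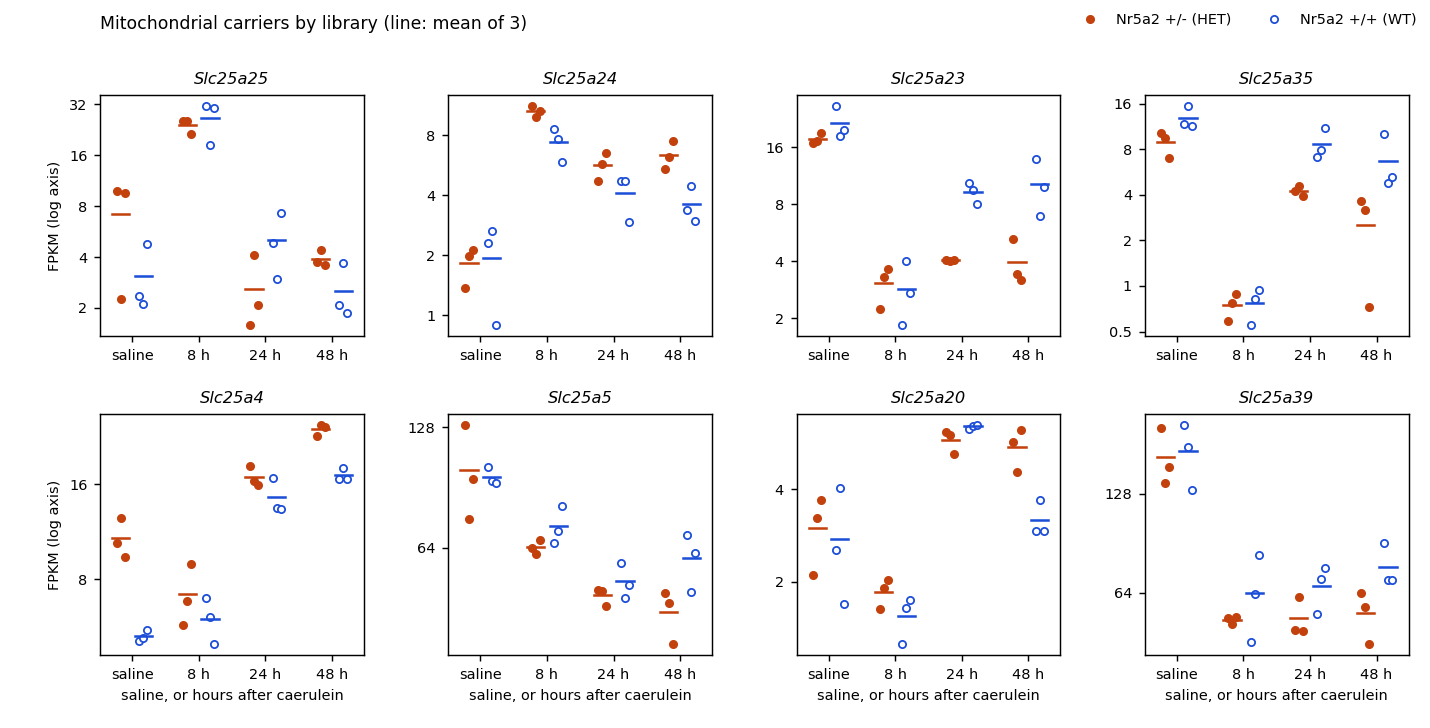
FPKM on a log axis of 8 mitochondrial carriers at each time, with HET (filled) left of WT (open), 1 point per library and a line at the mean of 3. Slc25a25 and Slc25a24 peak at 8 h, Slc25a23 and Slc25a35 have their lowest means there, and Slc25a4 and Slc25a20 stand higher at 24 h than in saline.

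Against saline at 48 h, 22 members were higher and 49 lower in HET (44.2% of all genes tested and 50.8% of genes at the level were called), and 9 higher and 38 lower in WT (25.3% and 31.9%). The metal carriers had 3 higher and 12 lower of 18 in HET and 0 higher and 9 lower in WT. The amino acid carriers had 7 higher and 12 lower of 21 in HET and 4 higher and 8 lower in WT. Shares over all genes were not split by direction here, so these class counts are descriptions. Scaling without enzyme and Reg genes gave 38 higher and 15 lower in HET and 20 higher and 4 lower in WT, and scaling to the total of genes never at 0 and never at 1000 FPKM gave 31 higher and 40 lower in HET and 16 higher and 21 lower in WT.

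The fourth question was how the genotypes differed. In saline 2 members differed, 2.15% of the 93, against 2.36% of all genes tested and 2.5% of genes at the level. Slc25a4 measured 10.4, 12.5 and 9.44 FPKM in HET saline libraries and 5.1, 5.22 and 5.53 FPKM in WT saline libraries, and was higher in HET (log2 difference 0.90 ± 0.14 with adjusted p = 0.00254). Slc30a2, which loads zinc into secretory granules, measured 4.37, 2.59 and 2.41 FPKM in HET and 7.7, 6.77 and 6.48 FPKM in WT, and was lower in HET (log2 difference -0.98 ± 0.24 with adjusted p = 0.0363). WT saline was the 1 group with all its Slc30a2 libraries at the level of the rule, which 3 libraries of other groups also reached, so this difference is read as a description. HET and WT libraries were apart for both genes, as they were for 21 of the 93 members in saline, a count not made over all genes. Without HET_saline replicate 3 or any single WT_saline library the count was 1. Neither gene was called with the spread taken from the 6 libraries compared or under scaling without enzyme and Reg genes. The Slc25a4 call held when any 1 library was left out, and the Slc30a2 call was lost without 5 of the 6 libraries, taken singly. Of 12 marker lists for cell types 5 had saline libraries fully apart between the genotypes. The mean log2(FPKM + 1) was 3.87 to 5.14 in HET and 1.08 to 2.75 in WT over 7 adipocyte markers and 4.53 to 5.14 in HET and 5.67 to 7.0 in WT over 8 islet markers. It was 3.89 to 4.56 in HET and 2.6 to 3.62 in WT over 9 macrophage markers, 4.59 to 5.27 in HET and 3.88 to 4.36 in WT over 9 fibroblast and stellate cell markers, and 1.25 to 1.75 in HET and 1.15 to 1.24 in WT over 4 red blood cell markers. The part of these lists in the results was not tested.

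At 8 h limma called 0 members between the genotypes, with 8 at an unadjusted p under 0.05, and 0.218% of all genes tested and 0.185% of genes at the level were called. The log2 differences of the members ran from -0.74 to 1.72. The 8 h levels of the amino acid carriers are given above, and a missed threshold does not show that the genotypes were alike. Of the 12 marker lists 4 were fully apart at 8 h, with HET higher. Means were 4.19 to 4.51 in HET and 3.29 to 3.84 in WT for macrophage markers. They were 2.15 to 2.48 and 0.82 to 1.5 for neutrophil and 2.1 to 2.29 and 1.7 to 2.09 for endothelium markers. Intestinal epithelium had 0.32 to 0.47 and 0.18 to 0.28, with 2 of its 4 markers at 0 in every library. Their part was not tested.

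At 24 h 4 members were higher in HET and 6 lower, 10.8%, against 6.5% of all genes tested and 8.32% of genes at the level. Slc2a1 measured 7.55, 8.25 and 6.68 FPKM in HET and 3.16, 3.11 and 2.78 FPKM in WT, and was higher in HET (log2 difference 1.08 ± 0.20 with adjusted p = 0.00327). Slc30a4 measured 8.13, 7.63 and 6.36 FPKM in HET and 3.82, 3.65 and 4.54 FPKM in WT, and was higher (log2 difference 0.74 ± 0.15 with adjusted p = 0.00692). Slc25a23 measured 4.07, 4.03 and 4.05 FPKM in HET and 10.4, 9.58 and 8.08 FPKM in WT, and was lower (log2 difference -1.03 ± 0.23 with adjusted p = 0.0104). These 3 calls held when any 1 library was left out, with HET and WT libraries fully apart, and the call of Slc2a1 held under every alternative tried.

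The other 7 calls at 24 h were lost without at least 1 library. Slc39a1 and the sodium-potassium-chloride cotransporter Slc12a2 were higher in HET (log2 differences 0.61 ± 0.16 with adjusted p = 0.0256 and 0.41 ± 0.12 with adjusted p = 0.0479). Slc38a3 measured 7.07, 8.67 and 6.7 FPKM in HET and 21.3, 26.4 and 30.2 FPKM in WT, and was lower (log2 difference -1.66 ± 0.41 with adjusted p = 0.0203). Slc41a1 was lower (log2 difference -1.07 ± 0.27 with adjusted p = 0.0232), as was the fatty acid carrier Slc27a1 (-0.87 ± 0.20 with adjusted p = 0.014). Slc29a1 was lower (log2 difference -0.64 ± 0.18 with adjusted p = 0.0387), as was Slc7a8 (-0.58 ± 0.16 with adjusted p = 0.0377). In all 10 the libraries of the genotypes did not overlap, which held for 40 of the 93 members at 24 h. The share over all genes was not counted. The number called was 4, 6 and 5 without HET_24h replicate 1, 2 and 3 and 3 without WT_24h replicate 2, and 3 when the spread was taken from the 6 libraries compared. The split was 3 higher and 7 lower under median-of-ratios scaling and 5 higher and 1 lower under scaling without enzyme and Reg genes. The latter moved every gene's difference in log2 FPKM, before the pseudocount, by 0.22. Of the 12 marker lists 2 were fully apart at 24 h, the acinar means being lower in HET and the means of 7 duct markers higher, at 4.51 to 4.53 in HET and 4.01 to 4.24 in WT. Macrophage means were 5.85 to 6.3 in HET and an overlapping 5.09 to 5.86 in WT. The part of these lists in the differences, that of the ion carrier Slc12a2 included, was not tested.

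The 48 h comparison had the highest count of the 4 conditions, with 7 members higher in HET and 20 lower, 29% of the 93, against 12.2% of all genes tested and 16.3% of genes at the level. The lower ones made up 21.5%, where 8.75% of genes at the level were lower, and the higher ones 7.53%, where 7.59% were higher. The median log2 difference was -0.18 over the members and 0.03 over genes at the level. HET and WT libraries did not overlap in 49 of the 93 members, and how many of all genes were apart in this way was not counted. Of the lower members 6 carry metals, 5 amino acids, 3 are mitochondrial and 6 belong to other classes. Of the higher ones 3 are mitochondrial, 2 carry amino acids, 1 metals and 1 sugars.

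Slc39a5 had the largest difference. It measured 7.09, 3.68 and 0.399 FPKM in HET and 61.5, 28.2 and 41 FPKM in WT, and was lower in HET (log2 difference -3.5 ± 0.42 with adjusted p = 6.64e-05). HET_48h replicate 3, the library with the lowest acinar marker mean, held the lowest value, and the genotypes did not overlap. Slc30a2 measured 1.59, 0.902 and 0.67 FPKM in HET and 3.96, 2.13 and 2.94 FPKM in WT, and was lower (log2 difference -0.96 ± 0.24 with adjusted p = 0.0131). Slc39a11 was lower (log2 difference -1.17 ± 0.26 with adjusted p = 0.00713), as were Slc41a1 (-1.14 ± 0.27 with adjusted p = 0.0106), with 1 HET library just above 1 WT library, and Slc39a9, a zinc carrier of the Golgi (-0.38 ± 0.11 with adjusted p = 0.0283). The zinc importer Slc39a1 measured 18, 25.3 and 21.7 FPKM in HET and 11.3, 15.3 and 12.4 FPKM in WT, higher in HET (log2 difference 0.69 ± 0.16 with adjusted p = 0.00836). Zinc importers of the same family were thus called in both directions at 48 h, and Slc39a9 took the other sign under scaling without enzyme and Reg genes.

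**Figure D4:**
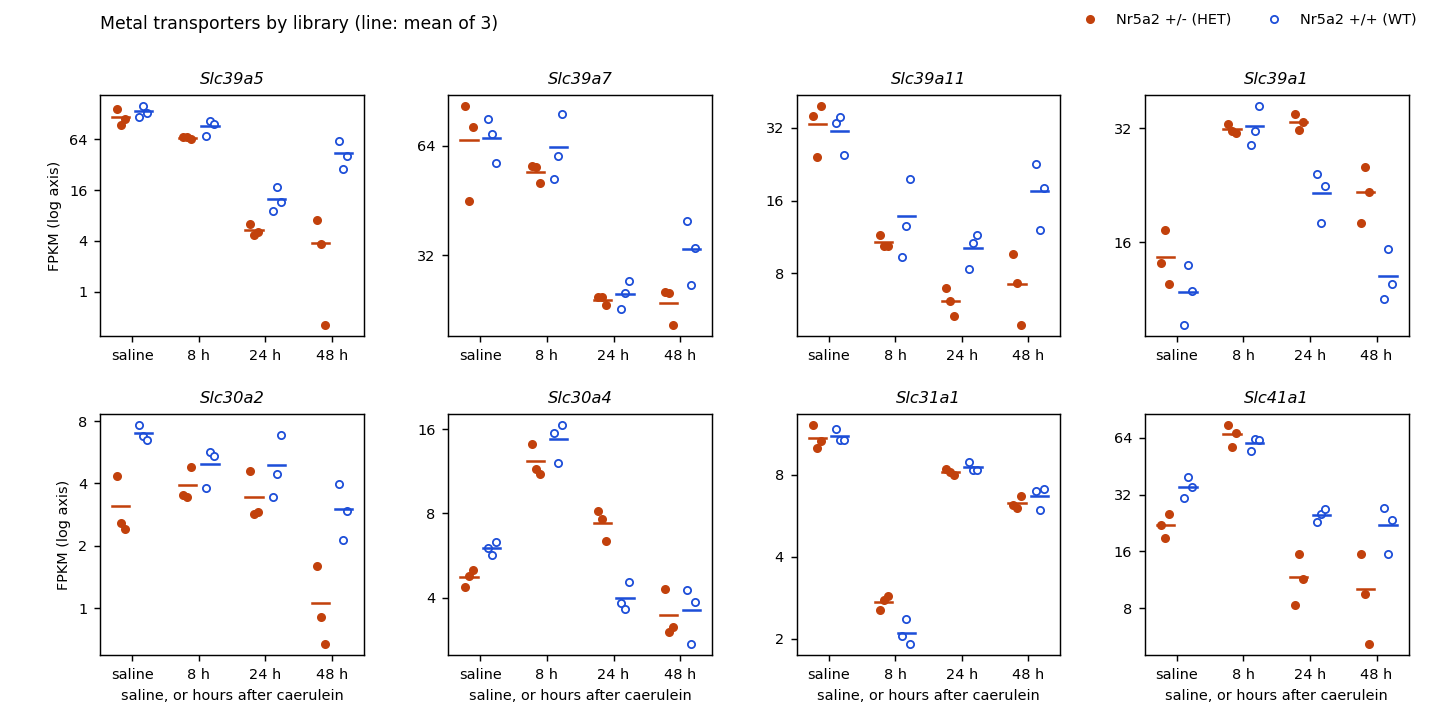
FPKM on a log axis of 8 metal transporters at each time, with HET (filled) left of WT (open), 1 point per library and a line at the mean of 3. HET libraries of Slc39a5, Slc39a11 and Slc30a2 lie below WT libraries at 48 h, those of Slc39a1 lie above, and those of Slc31a1 overlap WT at 24 h and 48 h.

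Among the amino acid carriers Slc7a8 measured 8.46, 7.26 and 7.5 FPKM in HET at 48 h and 23.2, 14.2 and 17.3 FPKM in WT, and was lower in HET (log2 difference -1.11 ± 0.16 with adjusted p = 3.33e-04). Slc7a5 measured 9.68, 7.49 and 5.11 FPKM in HET and 16, 11.4 and 16.9 FPKM in WT, and was lower (log2 difference -0.92 ± 0.19 with adjusted p = 0.00418). The genotypes did not overlap for either. Their partner Slc3a2 did not pass the test, with 42.2, 31.7 and 27 FPKM in HET and 45.9, 30.6 and 39 FPKM in WT. Slc38a3 was lower (log2 difference -1.61 ± 0.41 with adjusted p = 0.015), as were Slc6a9 (-1.09 ± 0.26 with adjusted p = 0.0108) and the glutamate carrier Slc1a3 (-0.99 ± 0.23 with adjusted p = 0.00869). Slc38a1 was higher (log2 difference 0.66 ± 0.18 with adjusted p = 0.0234) and so was Slc7a7, a light chain that exports cationic amino acids (0.56 ± 0.16 with adjusted p = 0.03), with an overlap of 1 WT library in Slc7a7.

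A peptide carrier and a monocarboxylate carrier were lower in HET at 48 h. Slc15a2, a proton-coupled importer of small peptides, measured 0.899, 1.11 and 1.06 FPKM in HET and 5.98, 5.12 and 6.72 FPKM in WT, and was lower (log2 difference -1.77 ± 0.31 with adjusted p = 0.00111). It is a member only through these WT libraries, with 2 libraries at the level elsewhere, so the difference is a description and supports nothing. Slc16a5 measured 1.61, 0.803 and 0.364 FPKM in HET and 7.16, 4.01 and 3.54 FPKM in WT, and was lower (log2 difference -1.62 ± 0.26 with adjusted p = 5.47e-04). Both groups of libraries were apart in these 2 genes. Slc2a1 was higher in HET at 48 h as at 24 h, with 5.67, 6.67 and 5.5 FPKM in HET and 3.31, 3.28 and 3.18 FPKM in WT and a log2 difference of 0.70 ± 0.20 with adjusted p = 0.0252.

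Mitochondrial carriers were called in both directions at 48 h. Slc25a23 measured 5.23, 3.45 and 3.21 FPKM in HET and 13.9, 6.92 and 9.89 FPKM in WT and was lower (log2 difference -1.15 ± 0.23 with adjusted p = 0.00289), while its calcium-regulated relative Slc25a24 measured 5.4, 6.22 and 7.49 FPKM in HET and 3.38, 4.45 and 2.98 FPKM in WT and was higher (log2 difference 0.68 ± 0.22 with adjusted p = 0.0479). Slc25a35 and Slc25a16 were lower (log2 differences -1.2 ± 0.29 and -0.60 ± 0.17). Slc25a4 and Slc25a20 were higher (log2 differences 0.46 ± 0.14 and 0.63 ± 0.18). The remaining lower members were Slc33a1, Slc26a6, Slc46a3, the choline-like carrier Slc44a3 and the copper carrier Slc31a2, between -0.72 and -0.59 on the log2 scale. Slc1a3, Slc44a3 and Slc31a2 lie outside the rule for named genes and were named after their values were seen.

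The 48 h count rested on single libraries and on the pooled spread. It was 14 without HET_48h replicate 2, 7 without HET_48h replicate 3, 7 without WT_48h replicate 1, 11 without WT_48h replicate 3 and 1 (Slc15a2) when the spread was taken from the 6 libraries compared. The calls of Slc39a5, Slc16a5, Slc25a23, Slc7a8 and Slc7a5 held without any 1 library, and so did that of Slc15a2, which the rule chose through the WT 48 h libraries. Scaling without enzyme and Reg genes moved every gene's difference in log2 FPKM, before the pseudocount, by 0.48 and gave 19 higher and 10 lower. At 48 h 3 of the 12 marker lists were fully apart. Acinar means were lower in HET, and those of 5 endothelium markers were 1.52 to 1.93 in HET and 2.21 to 2.42 in WT. Those of 4 intestinal epithelium markers were 0.23 to 0.42 in HET and 0.10 to 0.18 in WT. Of these, Cdx2 and Apoa4 were at 0 in every library and Fabp2 was at 0 in all but HET_48h replicate 2. The list thus rests on Vil1, at 0.938, 0.83 and 2.18 FPKM in HET and 0.321, 0.644 and 0.55 FPKM in WT. Macrophage means were 5.64 to 6.41 in HET and 4.0 to 5.67 in WT, with a small overlap. Their part in these differences was not tested.

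**Figure D5:**
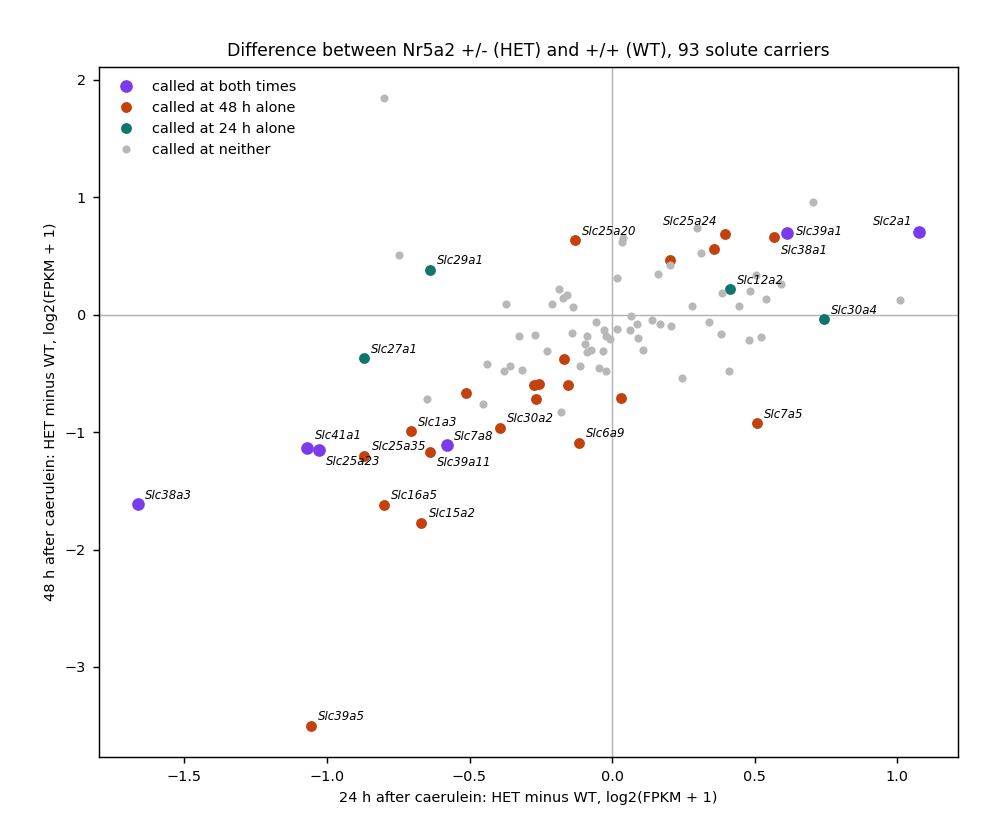
Each point is 1 of the 93 members, with the log2 difference of HET minus WT at 24 h on the horizontal axis and at 48 h on the vertical axis, coloured by the time at which it was called. Slc38a3, Slc41a1, Slc25a23 and Slc7a8 were lower in HET at both times, Slc2a1 and Slc39a1 higher at both, and Slc39a5 lies lowest at 48 h.

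Over the 4 conditions 31 members were called in at least 1 genotype comparison and 62 in none. The 31 are 33.3% of the members, against 17.2% of all genes tested in each comparison and 21.4% of genes at the level. Of the 31, 8 were called in 2 conditions, always in the same direction. Slc38a3, Slc41a1, Slc25a23 and Slc7a8 were lower in HET at both 24 h and 48 h, Slc2a1 and Slc39a1 higher at both, Slc25a4 higher in saline and at 48 h, and Slc30a2 lower in saline and at 48 h. Slc25a12, Slc35a4, Slc39a13 and Slc43a3 were called in none of the 14 comparisons made.

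Whether caerulein acted differently in HET was tested as the difference between the genotypes' responses. For 24 h against saline 4 members were called, 4.3%, against 2.31% of all genes tested and 2.65% of genes at the level. On the log2 scale the HET response exceeded the WT response by 1.03 ± 0.21 with adjusted p = 0.0156 for Slc30a4, by 0.82 ± 0.17 with adjusted p = 0.0159 for Slc12a2, by 1.04 ± 0.24 with adjusted p = 0.0264 for the lysosomal glutamine carrier Slc38a7 and by 1.34 ± 0.35 with adjusted p = 0.0474 for the chloride-bicarbonate exchanger Slc4a2. Slc30a4 and Slc38a7 were higher at 24 h than in saline in HET (log2 differences 0.54 and 0.85), while in WT Slc30a4 was lower than in saline at -0.49 and Slc38a7 had -0.20. Slc12a2 and Slc4a2 fell in WT (log2 difference -0.84 and -0.86) and had -0.02 and 0.48 in HET. In saline the libraries of all 4 genes were already apart, with HET below WT, although none was called. Saline libraries of the genotypes were apart in 21 of the 93 members, without a share over all genes. The log2 difference of HET against WT in saline was -0.29 ± 0.15 with adjusted p = 0.293 for Slc30a4 and -0.41 ± 0.12 with adjusted p = 0.077 for Slc12a2. It was -0.56 ± 0.17 with adjusted p = 0.0794 for Slc38a7 and -0.86 ± 0.25 with adjusted p = 0.0667 for Slc4a2. Each response difference contains this saline difference, with its sign turned. Under scaling without enzyme and Reg genes none of the 4 response calls held and the WT falls of Slc30a4 and Slc4a2 took the other sign. The count was 1 without HET_24h replicate 2, 2 without HET_24h replicate 3, WT_saline replicate 2, WT_saline replicate 3 or WT_24h replicate 1, and 10 without WT_24h replicate 3, and under median-of-ratios scaling the split was 3 higher and 1 lower. The Slc30a4 response call was the 1 that held without any 1 library, with the spread taken from the libraries compared and with libraries of one guide alone, while that of Slc12a2 was lost without HET_24h replicate 2 and those of Slc38a7 and Slc4a2 without 6 and 9 of the 12 libraries, taken singly.

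For 48 h against 8 h 2 members were called, 2.15%, against 0.723% of all genes tested and 1.03% of genes at the level. On the log2 scale the HET response minus the WT response was -1.42 ± 0.23 with adjusted p = 0.00737 for Slc7a8, with 1.02 in HET and 2.44 in WT. That of Slc39a5 was -3.08 ± 0.59 with adjusted p = 0.0234, with -4.17 in HET and -1.09 in WT. At 8 h the HET and WT libraries were apart for both genes without a call (log2 difference of HET against WT 0.30 ± 0.16 with adjusted p = 0.94 for Slc7a8 and -0.42 ± 0.42 with adjusted p = 1 for Slc39a5). The genotypes were apart in 16 of the 93 members at 8 h, without a share over all genes. Neither response call held under scaling without enzyme and Reg genes, with the spread taken from the libraries compared or with libraries of one guide alone. The Slc7a8 call held without any 1 library and the Slc39a5 call was lost without 6 of the 12, taken singly. The count was 5 without HET_48h replicate 1, 6 without WT_48h replicate 2, and 1 without any single library of HET_8h, WT_8h replicate 1, WT_48h replicate 1 or WT_48h replicate 3.

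The start regions of the members were read for letters that Nr5a2 and the metal-responsive factor Mtf1 are known to bind, for an element of Atf4 and Cebp factors and for an E-box. RefSeq start windows (build GRCm38.p6, the 250 bases before each start) were found for 72 of the 93 members, 105 windows in all. The Nr5a2-type letters CAAGGNCA, on either strand, were in 5.71% of the member windows and in 5.53% of all 32851 windows of that length. The core letters of a metal response element, TGCACNC, were in 11.4% and 10.4%. Of the members called in a genotype comparison 2 have Nr5a2-type letters. They are Slc29a1, called lower in HET at 24 h, and Slc31a2, called lower at 48 h. Slc39a5, the member with the largest difference, is shown with its metal response letters. None of its windows held the Nr5a2-type letters. The Atf4 and Cebp letters TGATGNAA were in 3.81% of member windows and 3.45% of all windows, and the E-box letters CAGCTG in 12.4% and 13%. The 4 sets of letters do not contain each other. Capitals mark the matched letters, read 5′ to 3′ on the gene's strand, and a match is a description of the window and not a bound site.
Slc29a1: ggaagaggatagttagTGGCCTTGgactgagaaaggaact
Slc31a2: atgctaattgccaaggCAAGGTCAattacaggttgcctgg
Slc39a5: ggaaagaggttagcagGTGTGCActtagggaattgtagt
The Slc29a1 stretch lies at chr17:45593063-45593102 on the minus strand with the letters in reverse, the Slc31a2 stretch at chr4:62286250-62286289 on the plus strand, and the Slc39a5 stretch at chr10:128401331-128401369 on the minus strand with the letters in reverse. Each lies upstream of the start, 149, 163 and 129 bases before it.

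Further lists were counted beside the members. A list of 34 transport genes outside the symbol pattern of the rule held ion pumps, water and ion channels, metallothioneins and carrier partners. It also held other carriers, such as Ucp2, Mpc1, Mpc2 and Slco genes. Of the 34, 33 were tested, and at 48 h 3 were higher in HET and 5 lower. That was 24.2%, against 12.2% of all genes tested and 16.3% of genes at the level. The list was chosen with earlier results of these data known and includes genes below the level, such as Cftr. Its share is a description. The water channel genes Aqp12 and Aqp8 were lower (log2 differences -3.74 ± 0.44 with adjusted p = 6.64e-05 and -2.24 ± 0.37 with adjusted p = 8.44e-04), as was the calcium-manganese pump of the Golgi, Atp2c2 (-1.29 ± 0.25 with adjusted p = 0.00281). The 3 higher ones, named after their values were seen, were Emb, a partner of monocarboxylate carriers (1.30 ± 0.39 with adjusted p = 0.0373), Fxyd5, a regulator of the sodium-potassium pump (0.95 ± 0.30 with adjusted p = 0.0452), and the mitochondrial carrier Ucp2 (0.84 ± 0.27 with adjusted p = 0.0475). Of 94 genes with the Slc pattern below the level that could be tested, 4 were higher and 2 lower in HET at 48 h, 6.38%. The 12.2% of all genes tested is not a like share for these low genes. It was 1572 of 12867 genes, and 1238 of the 7578 tested genes at the level were among those called. A share over the tested genes below the level was not counted.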

How the data were processed

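Polyadenylated RNA of 24 pancreas libraries, 8 groups of 3 animals, was sequenced. Per the submitters' processing notes the authors used CASAVA 1.8, Bowtie, Cufflinks 2.0.2 and Cuffnorm with build mm9, and deposited 1 table of FPKM values for 36806 genes, printed to 3 significant digits. The unit was read from those tools. Read counts were not used here, so library depth is unknown and intervals for counting error are left out. Samples were grouped by genotype and treatment labels, and replicates were numbered in accession order, which pairs nothing.

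Values were tested as log2(FPKM + 1) with limma 3.58.1 in R 4.3.3 (1 mean per group over all 24 libraries, trend and robust moderation, two-sided) on 12871 genes at 1 FPKM or more in at least 3 libraries. P-values were adjusted by Benjamini-Hochberg over all genes of a comparison, for 14 comparisons. Exact zeros of a group were treated as missing where another group's libraries all reached 100 FPKM, which touched 22 genes and no member. The procedure was tested on simulated data. Alternatives changed the pseudocount, the filter, the scaling, the libraries sharing the spread and the zeros, or left out each library in turn.

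Members and gene lists were chosen with earlier results of these data known. Named members were those of a list by role, up to 5 per direction and comparison with the smallest adjusted p among called members whose groups did not overlap, up to 8 called in each response comparison, the 10 with the highest mean and the highest of each role class, 60 in all. Start windows came from RefSeq (GRCm38.p6) and were used only as letters and coordinates of that build. Figures were drawn with matplotlib 3.10.9, and tables made with pandas 2.3.3 and numpy 2.4.6 in Python 3.11.15.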

Additional observations from a re-analysis of the deposited data

Results flagged for a closer look

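6 results were picked out because the HET and WT responses to caerulein differed in a direct test of that difference with limma. For 24 h against saline, the HET response minus the WT response on the log2(FPKM + 1) scale was 1.03 for Slc30a4, 0.82 for Slc12a2, 1.34 for Slc4a2 and 1.04 for Slc38a7. For 48 h against 8 h it was -1.42 for Slc7a8 and -3.08 for Slc39a5. Acinar marker means also differed between the genotypes at 24 h and 48 h, and their part in these differences was not tested. Groups of 3 libraries are too small for a test of single outlying libraries.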

How the results depend on the processing

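The genotype counts other than that of 8 h moved with the processing, and the counts over time within a genotype, except that of 48 h against saline in WT, stayed within 1.5 times. With the spread taken from the compared groups only, the members called between genotypes were 0 in saline, 3 at 24 h and 1 at 48 h, and the response counts were 1 for 24 h against saline and 0 for 48 h against 8 h. Scaling without enzyme and Reg genes gave 0 in saline, 6 at 24 h, 24 for 48 h against saline in WT and 0 for both response counts. Scaling to the total of genes never at 0 and never at 1000 FPKM, added after the data were seen, gave 2 for the response at 24 h. Libraries of one preparation guide alone gave 1 in saline, 1 for the 24 h response and 0 for the 48 h response. A pseudocount of 0.1 gave 1 for the 48 h response. Leaving out 1 library gave 1 to 3 in saline, 3 to 9 at 24 h, 7 to 34 at 48 h, 1 to 10 for the 24 h response and 1 to 6 for the 48 h response.

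Under scaling without enzyme and Reg genes the log2 difference became 0.0127 for Slc39a9 between genotypes at 48 h, and for 24 h against saline 0.288 for Slc30a4, 0.0722 for Slc25a5 and 0.011 for Slc4a2 in WT and 0.151 for Slc25a5 in HET. That scaling multiplies all values of a library by 1 factor, and the cause was not tested. Under the other alternatives no called difference given in the text changed sign.

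The groups held different animals, 3 in each, so no paired analysis applied. The labels carry no replicate numbers. Read depth is unknown, so the spread between 3 animals a group is the measure of precision, and direction against saline depends on the scale chosen.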
